A study of Rattus norvegicus with 28 samples.

Results

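The genes described here are the nuclear-encoded members of the mitochondrial respiratory chain and ATP synthase whose gene name on the array begins with Nduf (followed by a letter), Sdha to Sdhd, Uqcr, Cox4 to Cox8 or Atp5. They numbered 37 of the 37806 gene names on the array: 7 of complex I, 3 of complex II, 2 of complex III, 11 of complex IV and 14 of ATP synthase (complex V). Of the 52 probes of these genes, the brightest probe of each gene name was used. All 37 were well above background in both channels of all 28 arrays and none was saturated on any array, so all 37 passed the filter on dim probes and were among the 34849 gene names tested.

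RNA came from primary hepatocytes of 2 adult female Sprague-Dawley rats, animals A and B, grown on Matrigel. Cells were precultured for 48 h with 0.1 uM dexamethasone and then exposed for 24 h, and 3 dishes were pooled for each RNA. The 7 test groups were untreated cells without solvent, TCDD (2,3,7,8-tetrachlorodibenzo-p-dioxin) at 0.01 and 1 nM, TCDF (a tetrachlorinated dibenzofuran) at 0.1 and 10 nM, and PeCDF (a pentachlorinated dibenzofuran) at 0.02 and 2 nM; the treated cells also received 0.1% DMSO. Each test RNA was hybridised in both dye orientations against RNA of DMSO-treated cells of the same animal, which gave 4 arrays and 2 animal-level values per group. All values below are log2 ratios of test RNA over DMSO RNA, with the standard error from the limma fit and n = 2 animals unless stated. A ratio holds the spread of the test cells and of the DMSO cells together, and the 2 cannot be told apart. The fit treats the groups as independent, though they may share an animal's DMSO RNA.

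The respiratory chain sits in the inner mitochondrial membrane. Complex I takes electrons from NADH and complex II from succinate, complex III passes them to cytochrome c, and complex IV hands them to oxygen; the proton gradient so built drives ATP synthase. Most subunits are encoded in the nucleus and imported, and their genes are known targets of the transcription factors NRF1 and GABP. Hepatocytes are rich in mitochondria, which also house fatty acid oxidation and part of the urea cycle. TCDD and the chlorinated furans are ligands of the aryl hydrocarbon receptor (AHR), a transcription factor best known for inducing cytochromes P450 of family 1.

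As a check of treatment, all 8 listed AHR battery genes rose with TCDD 1 nM, 6 with TCDF 10 nM and 7 with PeCDF 2 nM. Cyp1b1 was 15.2-fold, 4.21-fold and 6.86-fold higher, respectively (adjusted p = 8.97e-07, 2e-04 and 6.73e-05, limma). All 10 hepatocyte markers were well above background on all arrays, as were all 12 Kupffer cell and leukocyte markers and all 9 measured stellate cell markers. Of the endothelial markers 4 of 7 were above background throughout, of the bile duct markers 6 of 8, and of the muscle markers 3 of 6, so signal of markers of cells other than hepatocytes was present. The arrays of untreated and TCDD-treated cells were read by Agilent's software in a different session from those of TCDF and PeCDF, so compound and session cannot be told apart. PeCDF 2 nM had an array of animal B with 334 marked spots, more than any other array; Ndufs1, Atp5g1 and Atp5g3 lost their value there and rest on animal A alone in that group.

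The members shifted slightly downward at the upper doses. With TCDD 1 nM 7 members fell and 1 rose (21.6% of 37), against 10.6% of all gene names tested (4.63% higher, 5.92% lower). With TCDF 10 nM 4 fell and none rose (10.8% of 37), against 2.36% of all gene names (1.11% higher, 1.26% lower). With PeCDF 2 nM 5 fell and none rose (13.5%), against 4.39% of all gene names (1.72% higher, 2.67% lower). In all, 12 members were called at an upper dose and 25 at none. The changes were small: the called decreases lay between 1.14-fold and 1.37-fold in linear terms.

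These genes are bright on the array, and bright gene names were called more often. Among the 2626 gene names with a mean log2 intensity of at least 11, a limit chosen after seeing the data, 27.1% were called with TCDD 1 nM (17.2% lower), 8.69% with TCDF 10 nM and 12.3% with PeCDF 2 nM. Of the 29 members in that range, 8, 4 and 5 were called. The share of members called with TCDD 1 nM was therefore near that of other bright genes.

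The median of the members lay lower than that of bright genes. Over 37 members the median log2 ratio was -0.110 with TCDD 1 nM, -0.132 with TCDF 10 nM and -0.083 with PeCDF 2 nM, while the median of all gene names stayed within 0.003 of 0. Bright gene names had medians of -0.024, -0.011 and -0.020, and the 29 bright members -0.110, -0.151 and -0.130. By animal, the members' median was -0.146 in A and -0.099 in B with TCDD 1 nM, -0.176 and -0.083 with TCDF 10 nM, and -0.130 and -0.054 with PeCDF 2 nM. Both animals lay below 0 in each of these groups, as they did in all 7 groups. Animal A lay lower than B at all 3 upper doses.

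**Figure D1:**
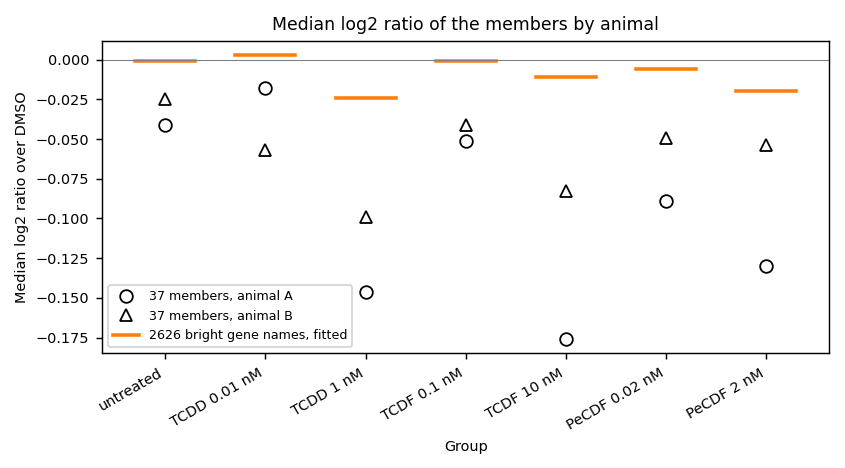
Median log2 ratio over DMSO of the 37 members for animal A (circles) and animal B (triangles) in the 7 groups, with the fitted median of 2626 bright gene names as orange bars. All 14 animal medians are below 0, from -0.018 to -0.176, and the bars lie between -0.024 and 0.003.

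Without solvent and at the lower doses no member was called. In untreated cells the median was -0.028 and no member had even an unadjusted p under 0.05 (0 called of 37; 0.043% of all gene names). TCDD 0.01 nM gave a median of -0.032 and 6 members with an unadjusted p under 0.05 (0 called; 0.451% of all gene names). TCDF 0.1 nM gave -0.054 and 2 such members (0 called; 0.00287%), and PeCDF 0.02 nM -0.061 and 9 such members (0 called; 0% of all gene names). An array-level fit with a dye term called 0, 3, 1 and 6 members in these groups, in the same order. It enters both dye orientations of an RNA, which are 1 replicate. Only a random block for the animal within its group holds them together. The share of all gene names called in that fit was not recorded. Percentages in this paragraph count gene names called after adjustment. The share of all gene names at an unadjusted p under 0.05 was not recorded. The members' counts at that limit thus have none to be read against.

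**Figure D2:**
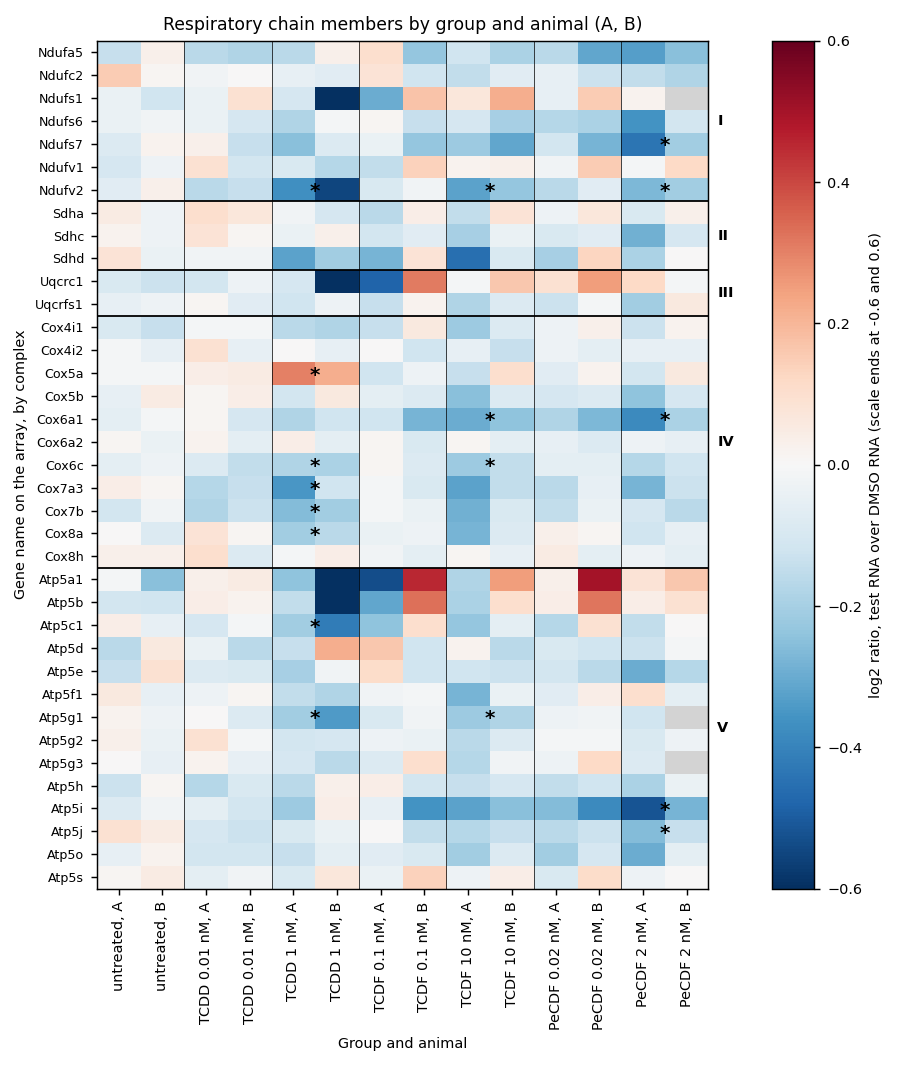
Log2 ratio over DMSO of each of the 37 members (rows, by complex I to V) in each animal of the 7 groups (columns); blue is lower and red higher, the colours end at -0.6 and 0.6, grey marks a missing value and an asterisk between the animals an adjusted p under 0.05. The asterisks lie in the columns of TCDD 1 nM (8), TCDF 10 nM (4) and PeCDF 2 nM (5) only.

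Promoters of the members were read from RefSeq (assembly GRCr8) for 33 of 37; Cox4i2, Cox6a1, Cox6c and Atp5h were not matched. Motifs were searched on both strands over the 250 bases before and 50 bases after the gene start. The NRF1 core CGCATGCG was in 15.2% of the members' promoters and 2.24% of 19005 protein-coding promoters, the ETS core that GABP binds, CCGGAAG, in 27.3% and 11.2%, and either of these in 36.4% and 12.9%. The AHR core GCGTG was in 51.5% and 35.8%. It can share letters with the NRF1 core, as it does at Atp5j. Promoters of members had a median of 58.3% G and C and 21 CpG, against 55.3% and 12. Of the 10 called members with a promoter, 2 held the NRF1 core, 4 the ETS core and 5 the AHR core; of the 23 others 3, 5 and 12 did.

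The 250 bases before the start are shown, 5′ to 3′, for Ndufv2, called at all 3 upper doses, for Cox5a, the member that rose, for Atp5i (Atp5me), which holds the NRF1 and ETS cores, and for Atp5g1 (Atp5mc1), which holds none of the 3. Capitals mark matches to the 3 cores or their reverse complements.
Ndufv2 (chr9:113157521-113157770, minus strand): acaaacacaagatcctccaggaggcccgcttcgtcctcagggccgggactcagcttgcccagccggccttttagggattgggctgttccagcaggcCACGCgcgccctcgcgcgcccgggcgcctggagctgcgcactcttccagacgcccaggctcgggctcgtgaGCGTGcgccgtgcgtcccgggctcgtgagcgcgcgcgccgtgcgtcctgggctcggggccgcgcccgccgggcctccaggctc
Cox5a (chr8:66818034-66818283, plus strand): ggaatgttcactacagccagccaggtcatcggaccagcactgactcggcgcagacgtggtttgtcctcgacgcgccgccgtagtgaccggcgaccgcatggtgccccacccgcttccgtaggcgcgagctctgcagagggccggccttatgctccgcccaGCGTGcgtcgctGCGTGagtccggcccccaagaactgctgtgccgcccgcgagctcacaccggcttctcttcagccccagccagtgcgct
Atp5me (chr14:1464610-1464859, plus strand): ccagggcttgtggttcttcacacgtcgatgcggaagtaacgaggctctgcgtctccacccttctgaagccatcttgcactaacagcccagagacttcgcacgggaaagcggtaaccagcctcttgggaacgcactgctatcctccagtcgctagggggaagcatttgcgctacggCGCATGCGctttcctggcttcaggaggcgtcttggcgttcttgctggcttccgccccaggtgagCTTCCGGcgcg
Atp5mc1 (chr10:81523346-81523595, minus strand): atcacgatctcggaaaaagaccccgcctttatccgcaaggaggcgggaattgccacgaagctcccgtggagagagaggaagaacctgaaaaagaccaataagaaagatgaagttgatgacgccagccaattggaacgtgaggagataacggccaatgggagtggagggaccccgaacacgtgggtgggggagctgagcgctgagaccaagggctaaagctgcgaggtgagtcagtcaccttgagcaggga
In Ndufv2 the AHR core begins at -154 and -83 from the gene start, in Cox5a at -90 and -78, and in Atp5me the NRF1 core begins at -75 and the ETS core at -11. A match is a description of letters, and no binding was measured here.

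Ndufv2 was the member called in all 3 upper doses. It encodes an iron-sulfur subunit of the module of complex I that binds NADH. On the 4 arrays with TCDD 1 nM its log2 ratios were -0.39 and -0.35 in animal A and -0.57 and -0.52 in animal B. With TCDF 10 nM they were -0.30 and -0.35 in A and -0.25 and -0.22 in B, and with PeCDF 2 nM -0.29, -0.25, -0.24 and -0.18. Ndufv2 was named for its calls at these doses, so low values on these 12 arrays follow from the choice. The 4 arrays of untreated cells ran from -0.10 to 0.07. They were read in the same session as the TCDD arrays but not the furan arrays.

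Fitted log2 ratios of Ndufv2 were -0.46 ± 0.05 with TCDD 1 nM (1.37-fold lower, adjusted p = 0.00025, limma), -0.28 ± 0.05 with TCDF 10 nM (p adjusted 0.0156) and -0.24 ± 0.05 with PeCDF 2 nM (p adjusted 0.0213). TCDD 0.01 nM had -0.15 ± 0.05 (adjusted p = 0.262), with -0.16 in A and -0.14 in B. The step from 0.01 to 1 nM was -0.30 ± 0.07 (adjusted p = 0.0351), where 3.74% of all gene names were called, and Ndufv2 was the only member called for a dose step. Agilent's own log ratio ended the calls with TCDF, PeCDF and for the dose step (adjusted p = 0.101, 0.0881 and 0.130) but not with TCDD 1 nM. Leaving out either animal ended the TCDF and PeCDF calls, and leaving out animal B ended that of the dose step. A second probe of Ndufv2, near background at a mean log2 intensity of 6.30, had -0.10 ± 0.05 with TCDD 1 nM.

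The other complex I members called were few. Ndufs7, an iron-sulfur subunit near the ubiquinone site, had -0.44 in A and -0.21 in B with PeCDF 2 nM, and the fit gave -0.32 ± 0.07 (adjusted p = 0.0375). The animals were on the same side, with A further from 0, and without A the adjusted p was 0.487. With TCDF 10 nM Ndufs7 had -0.26 ± 0.07 (adjusted p = 0.117) and with TCDD 1 nM -0.16 ± 0.07 (p adjusted 0.217). The accessory subunits Ndufa5 and Ndufs6 had -0.29 ± 0.08 and -0.23 ± 0.06 with PeCDF 2 nM (adjusted p = 0.0663 and 0.0662) and did not pass. Ndufv1, the flavin-binding partner of Ndufv2, had -0.13, 0.03 and 0.05 with TCDD, TCDF and PeCDF at the upper doses. Over the 7 complex I members the median was -0.13, -0.15 and -0.23, with 1, 1 and 2 called.

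No member of complex II or III was called in any group. Sdha, the flavoprotein of succinate dehydrogenase, had -0.06 ± 0.06, -0.03 ± 0.06 and -0.03 ± 0.06 at the upper doses of TCDD, TCDF and PeCDF. Sdhd, a membrane anchor, had -0.27 ± 0.11 with TCDD 1 nM (-0.32 in A and -0.21 in B) and -0.27 ± 0.11 with TCDF 10 nM (-0.45 and -0.09). Sdhc, the other anchor, had -0.20 ± 0.05 with PeCDF 2 nM (adjusted p = 0.0616). Uqcrfs1, the Rieske iron-sulfur protein of complex III, had -0.07, -0.13 and -0.08; another of its probes had 0.23 ± 0.07 with TCDD 1 nM (adjusted p = 0.0799), so its probes differ in sign.

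In complex IV 4 of 11 members fell with TCDD 1 nM and 1 rose, against 10.6% of all gene names and 27.1% of bright ones called. Its small nuclear-encoded subunits surround a catalytic core made from mitochondrial DNA. Cox7b had -0.26 in A and -0.21 in B (-0.24 ± 0.05, adjusted p = 0.0125), Cox8a had -0.21 and -0.16 (-0.19 ± 0.05, p adjusted 0.0278) and Cox7a3, listed by RefSeq as Cox7a2, had -0.35 and -0.12 (-0.23 ± 0.06, p adjusted 0.0394). All 4 arrays of each were below 0, as they were for 19 of the 37 members in this group. With PeCDF 0.02 nM, where no member was called, 18 members were below 0 on all 4 arrays.

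Cox6c fell with both TCDD 1 nM and TCDF 10 nM. Its animals had -0.18 and -0.19 with TCDD, fitted as -0.18 ± 0.04 (adjusted p = 0.00822), and -0.22 and -0.15 with TCDF, fitted as -0.19 ± 0.04 (adjusted p = 0.0249). With PeCDF 2 nM it had -0.14 ± 0.04 (adjusted p = 0.0503). Cox6a1 fell with both furans: its animals had -0.30 and -0.24 with TCDF 10 nM (-0.27 ± 0.05, adjusted p = 0.0302) and -0.38 and -0.19 with PeCDF 2 nM (-0.28 ± 0.05, adjusted p = 0.0175). With TCDD 1 nM it had -0.15 ± 0.05 (adjusted p = 0.113). Cox6a1 was also low, without passing, with TCDF 0.1 nM (-0.20 ± 0.05) and PeCDF 0.02 nM (-0.22 ± 0.05).

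Cox5a was the only member called higher. It encodes a small subunit on the matrix side of complex IV. Its 4 arrays with TCDD 1 nM had 0.26 and 0.34 in animal A and 0.24 and 0.21 in animal B. The fit gave 0.26 ± 0.06 (1.20-fold, adjusted p = 0.0164). TCDF 10 nM had -0.14 and 0.10 in A and B and PeCDF 2 nM -0.11 and 0.06, with animals on opposite sides of 0. Cox5a did not pass for a difference between TCDD 1 nM and TCDF 10 nM (0.29, 95% interval 0.10 to 0.47, adjusted p = 0.226, limma). Leaving out animal A gave 0.22 (adjusted p = 0.136) and leaving out B 0.30 (adjusted p = 0.0866). A dim second probe had 0.16 ± 0.07 with TCDD 1 nM. Cox5b had -0.02 ± 0.05 there, with -0.11 in A and 0.06 in B, and another bright probe of it had -0.17 ± 0.05 (adjusted p = 0.0775).

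The tissue isoforms of complex IV stayed near 0. Their mean log2 intensities were low, at 8.75 for Cox6a2, 6.98 for Cox8h and 9.59 for Cox4i2. Ratios of dim probes can understate a change. Cox6a2 and Cox8h (Cox8b in RefSeq), isoforms known from heart and skeletal muscle, had -0.01 and 0.01 with TCDD 1 nM, -0.02 and -0.02 with TCDF 10 nM and -0.04 and -0.04 with PeCDF 2 nM. Cox4i2, an isoform known from lung, had -0.03, -0.09 and -0.05. None of the 3 was called in any group. Cox4i1, the common isoform, had -0.17 ± 0.05, -0.15 ± 0.05 and -0.05 ± 0.05 (adjusted p = 0.0717, 0.235 and 0.731).

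In ATP synthase, Atp5g1 fell with TCDD 1 nM and TCDF 10 nM. It is a gene (Atp5mc1 in RefSeq) for the ring that turns in the membrane. Its arrays with TCDD had -0.12 and -0.31 in A and -0.26 and -0.42 in B, fitted as -0.28 ± 0.04 (adjusted p = 0.00243). With TCDF they had -0.13, -0.31, -0.11 and -0.25, fitted as -0.20 ± 0.04 (adjusted p = 0.0392). In both groups the arrays of green-labelled test RNA lay further from 0 than those of red-labelled test RNA. The other ring genes, Atp5g2 and Atp5g3, which encode the same mature protein, had -0.10 ± 0.04 and -0.13 ± 0.06 with TCDD 1 nM and were not called. Atp5c1, the central stalk, had -0.21 in A and -0.42 in B with TCDD 1 nM (-0.32 ± 0.09, adjusted p = 0.0481), and this call ended under 6 of 14 alternatives, among them no background correction (adjusted p = 0.0944).

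PeCDF 2 nM was the group in which Atp5i and Atp5j fell. Atp5i (Atp5me) takes part in joining ATP synthase into dimers, and its arrays had -0.57 and -0.48 in A and -0.25 and -0.31 in B (-0.40 ± 0.08, 1.32-fold lower, adjusted p = 0.0244). Atp5i had -0.29 ± 0.08 with TCDF 10 nM (adjusted p = 0.131), -0.32 ± 0.08 with PeCDF 0.02 nM (adjusted p = 0.517) and -0.09 ± 0.08 with TCDD 1 nM. Atp5j (Atp5pf), a subunit of the peripheral stalk, had -0.26 and -0.14 with PeCDF 2 nM (-0.20 ± 0.04, adjusted p = 0.0272). The remaining peripheral stalk members Atp5f1, Atp5h and Atp5o were not called, with -0.16, -0.07 and -0.10 under TCDD 1 nM. Atp5s, which RefSeq names Dmac2l and which is not a subunit of the enzyme, had -0.01, 0.01 and -0.02 at the upper doses.

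**Figure D3:**
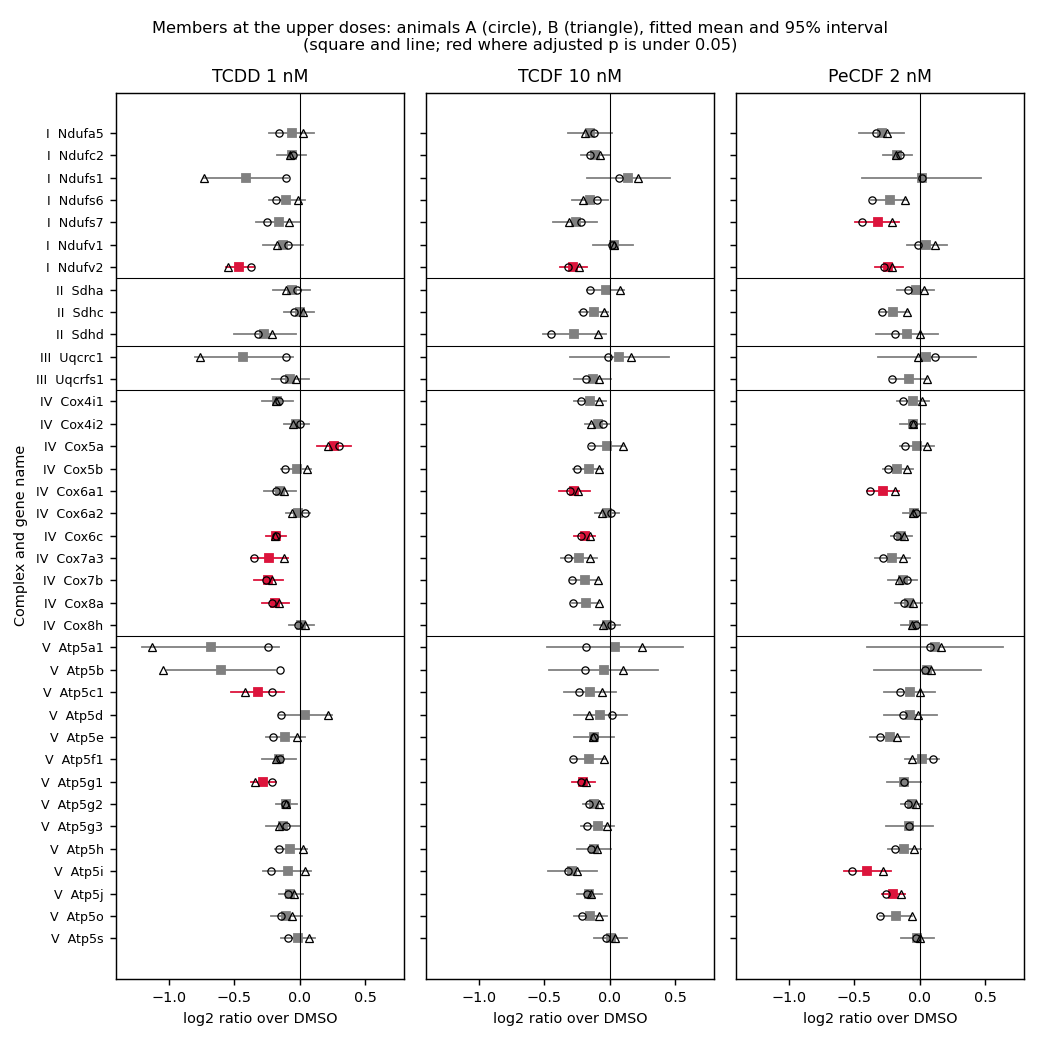
Log2 ratio over DMSO of each member with TCDD 1 nM, TCDF 10 nM and PeCDF 2 nM: animal A as circles, B as triangles, the fitted mean as a square with its 95% interval as a line, red where the adjusted p is under 0.05. Most squares lie left of 0, and with TCDD 1 nM Cox5a is the red square to the right of 0 (0.26).

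Leaving out an animal changed which members were called. Shares of all gene names were not recorded for the fits in this paragraph. It left 1 value in the group, so no counts are given for these fits. It ended calls of the main fit at each upper dose, and members not called in the main fit entered. Without A, Atp5a1, Atp5b, Uqcrc1 and Ndufs1 rested on animal B alone, at -1.13, -1.04, -0.76 and -0.73 with TCDD 1 nM. Without B they rested on -0.24, -0.15, -0.10 and -0.10. With Agilent's own log ratio the counts with TCDD 1 nM, TCDF 10 nM and PeCDF 2 nM were 4 (1 higher, 3 lower), 0 and 0. The directions of the called members kept their sign under all these alternatives.

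The 2 animals lay far apart in 4 members with TCDD 1 nM. Atp5a1 and Atp5b, the catalytic head of ATP synthase (Atp5f1a and Atp5f1b), had -0.24 and -0.15 in animal A but -1.13 and -1.04 in animal B. Uqcrc1, a core protein of complex III, had -0.10 and -0.76, and Ndufs1, an iron-sulfur subunit of complex I, -0.10 and -0.73. Both dye orientations showed this: Atp5b had -0.15 and -0.15 on the arrays of A and -1.03 and -1.05 on those of B. Fitted means were -0.68 ± 0.23, -0.60 ± 0.18, -0.43 ± 0.17 and -0.41 ± 0.14 (adjusted p = 0.102, 0.0703, 0.152 and 0.108), larger than most called changes and not called themselves.

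The same 4 members, picked after their values were seen, lay apart in another group. With TCDF 0.1 nM Atp5a1 had -0.53 in A and 0.45 in B, Atp5b -0.31 and 0.33, Uqcrc1 -0.48 and 0.31, and Ndufs1 -0.30 and 0.17. With PeCDF 0.02 nM animal B had 0.50, 0.32, 0.25 and 0.15 against 0.03, 0.04, 0.09 and -0.05 in A. The median of the other 33 members was -0.15 in A and -0.07 in B with TCDD 1 nM and -0.04 and -0.07 with TCDF 0.1 nM. A gap between animals of more than 0.5 was seen in 4 of 37 members with TCDD 1 nM, in 2.64% of all gene names and in 5.99% of bright ones; with TCDF 0.1 nM it was seen in 3 of 37 members, 2.04% of all and 5.35% of bright gene names. Cps1, a mitochondrial enzyme of the urea cycle and a hepatocyte marker, had -0.48 in A and -1.20 in B with TCDD 1 nM, and -0.48 and 0.02 with TCDF 0.1 nM. The part of animal or culture in these gaps was not tested.

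**Figure D4:**
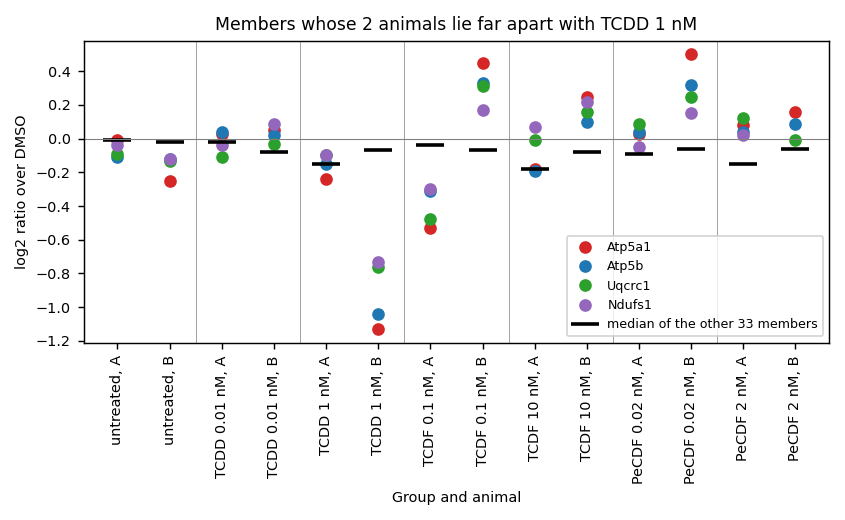
Log2 ratio over DMSO of Atp5a1, Atp5b, Uqcrc1 and Ndufs1 in the 14 pairs of group and animal, with the median of the other 33 members as black bars. In animal B with TCDD 1 nM the 4 genes lie between -0.73 and -1.13 while the bar is at -0.07; in animal B with TCDF 0.1 nM they lie between 0.17 and 0.45.

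Between doses and compounds few differences passed. Shares of all gene names called, here and in the next paragraph, are those of the main fit. None was recorded for the array-level fit or for an unadjusted p under 0.05. The steps from TCDF 0.1 to 10 nM and from PeCDF 0.02 to 2 nM called 0 members each, against 0.089% and 0.0833% of all gene names, and 5 and 0 members had an unadjusted p under 0.05 (limma); the array-level fit with a dye term called 1 and 0. From the lower to the upper dose 19 of 37 members were lower in both animals with TCDD and 4 higher in both, against 29.5% of all gene names lower in both. The corresponding counts were 17 and 3 of 37 with TCDF (25.2% of all gene names lower) and 12 and 1 of 34 with PeCDF (27.6%). No share of bright gene names, nor of all gene names higher in both animals, was recorded for these counts. The dose steps share no test RNA, but the DMSO RNA may be shared between arrays of an animal.

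The upper doses of the compounds differed (1, 10 and 2 nM), so differences between them also hold the dose. The counts called were 0 members for TCDD 1 nM over TCDF 10 nM (0.0631% of all gene names; 3 at an unadjusted p under 0.05; 5 in the array-level fit), 0 for TCDD 1 nM over PeCDF 2 nM (0.847%; 7; 8 in the array-level fit) and 0 for TCDF 10 nM over PeCDF 2 nM (0% of all gene names; 0; 0). Ndufv2 was lower with TCDD 1 nM than with PeCDF 2 nM by a log2 difference of -0.22 (95% interval -0.37 to -0.07, adjusted p = 0.159, limma), which did not pass. Between the furans its difference was -0.04 (-0.19 to 0.11).

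Genes with respiratory chain symbols in RefSeq but other gene names on the array numbered 36. They were found through accessions, gene identifiers and, for Cox6c-ps1, a synonym, after the files had been seen. Not all are subunits, as Ndufa13-ps1 and Cox6c-ps1 are pseudogenes by symbol and Atp5if1 is an inhibitor. Of the 36, 8 fell and 1 rose with TCDD 1 nM, 3 fell with TCDF 10 nM and 7 fell with PeCDF 2 nM, with medians of -0.11, -0.14 and -0.14. All gene names were called at 10.6%, 2.36% and 4.39%, and bright ones at 27.1%, 8.69% and 12.3%. The share with TCDD 1 nM was near that of bright genes, though the 36 were not picked by brightness. Sdhb, the iron-sulfur subunit of complex II, fell with all 3 (-0.27 ± 0.03, -0.19 ± 0.03 and -0.17 ± 0.03, adjusted p = 0.000387, 0.0138 and 0.0155). Ndufb9 of complex I (-0.27, -0.23 and -0.20) and Uqcrh of complex III (-0.23, -0.19 and -0.17) did so too. Ndufv3, of the same module as Ndufv2, fell with TCDD 1 nM (-0.39 ± 0.06) and PeCDF 2 nM (-0.24 ± 0.06). The gene that rose was Atp5if1, the inhibitor of ATP synthase, at 0.35 ± 0.07 (adjusted p = 0.00668).

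Genes of the citric acid cycle, which feeds complexes I and II, included larger decreases. In the citric acid cycle 6 of 15 genes fell and 1 rose with TCDD 1 nM, 3 fell with TCDF 10 nM, and 3 fell and 1 rose with PeCDF 2 nM. Beside these stand 5.92%, 1.26% and 2.67% of all gene names called lower and, with TCDD 1 nM, 17.2% of bright ones. Pdhb, a subunit of pyruvate dehydrogenase, had -0.92 in A and -1.44 in B with TCDD 1 nM (-1.18 ± 0.15, 2.26-fold lower, adjusted p = 0.000733). Pc, pyruvate carboxylase, fell with all 3 upper doses (-0.79 ± 0.09, -0.52 ± 0.09 and -0.38 ± 0.09), as did Idh3g of isocitrate dehydrogenase (-0.45, -0.39 and -0.45) and Suclg1 of succinate-CoA ligase (-0.35, -0.25 and -0.32). Idh3a, the catalytic partner of Idh3g, rose with TCDD 1 nM (0.25 ± 0.05).

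A list of 17 genes held electron carriers and inner membrane carriers. It also held the ubiquinone synthesis genes Coq3, Coq5, Coq6, Coq7 and Pdss2 and the outer membrane channels Vdac1, Vdac2 and Vdac3. Of the 17, 5 fell with TCDD 1 nM, 1 with TCDF 10 nM and 3 with PeCDF 2 nM. The shares of all and of bright gene names are the same as above. Coq7 and Coq5 were among the 5, at -0.27 and -0.24. Etfdh and Etfb, which pass electrons from fatty acid oxidation to ubiquinone, had -0.46 ± 0.04 and -0.47 ± 0.06 with TCDD 1 nM. Slc25a4, an ATP/ADP exchanger, fell with all 3 (-0.28, -0.41 and -0.48). Of 20 assembly factors outside the gene-name rule, 2 fell with TCDD 1 nM (Cox19, -0.25, and Foxred1, -0.24) and 0 were called with TCDF 10 nM or PeCDF 2 nM (limma).

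Genes for making mitochondria and their DNA went both ways. Of 17, 3 rose and 3 fell with TCDD 1 nM, 2 rose and 1 fell with TCDF 10 nM, and 3 rose with PeCDF 2 nM. Of all gene names 4.63%, 1.11% and 1.72% were called higher and 5.92%, 1.26% and 2.67% lower. Polg2, the accessory subunit of the mitochondrial DNA polymerase, had -0.66 ± 0.04 with TCDD 1 nM (adjusted p = 6.95e-06) and -0.28 ± 0.04 with TCDF 10 nM. Tfam, the packaging and transcription factor of mitochondrial DNA, had 0.24 ± 0.05 with TCDD 1 nM (adjusted p = 0.0152). Gabpa, the DNA-binding subunit of GABP, rose with all 3 (0.18 ± 0.05, 0.41 ± 0.05 and 0.33 ± 0.05, adjusted p = 0.0395, 0.00314 and 0.00637).

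**Figure D5:**
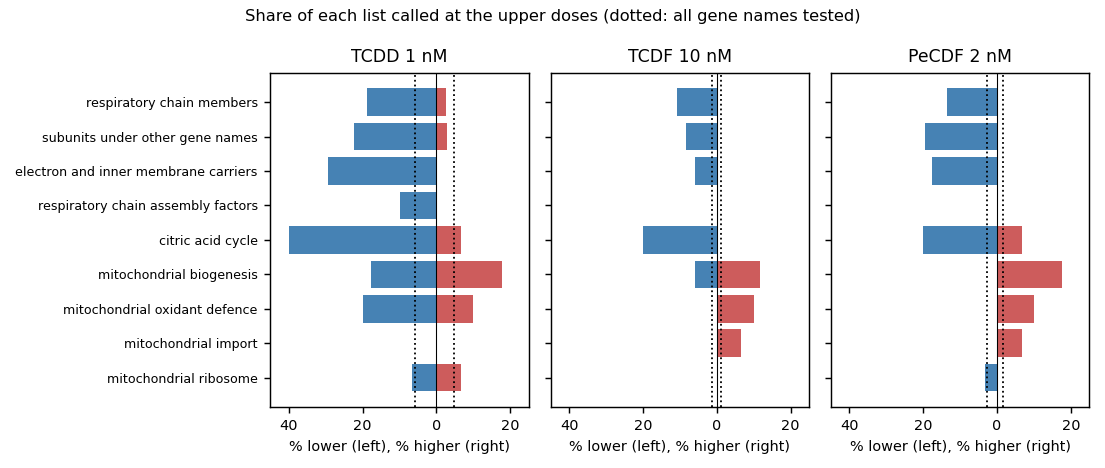
Percent of each gene list called lower (blue, to the left) and higher (red, to the right) with TCDD 1 nM, TCDF 10 nM and PeCDF 2 nM; dotted lines give the percent of all gene names tested. The citric acid cycle bar reaches furthest left with TCDD 1 nM (6 of 15 genes).

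Markers of other cells moved in the same groups. Of all gene names 5.92% were called lower and 4.63% higher with TCDD 1 nM. The shares were 1.26% and 1.11% with TCDF 10 nM and 2.67% and 1.72% with PeCDF 2 nM. With TCDD 1 nM 5 of 12 Kupffer cell and leukocyte markers fell (Lyz2, -0.60 ± 0.08; C1qc, -0.50 ± 0.12), and their summed signal over DMSO lay between -0.23 and -0.18 on the 4 arrays, against -0.14 to -0.07 in untreated cells. Of the stellate cell markers 2 of 9 fell (Vim, -0.75; Lox, -0.91), with a summed signal of -0.29 to -0.22 against -0.09 to -0.04. With TCDF 10 nM 0 of 12 and 1 of 9 fell, with sums of -0.23 to -0.06 and -0.23 to -0.09, and with PeCDF 2 nM 0 of 12 and 1 of 9 fell and 1 of 9 rose, with sums of -0.24 to 0.01 and -0.16 to -0.10. Bile duct markers fell in 2 of 8 with TCDD 1 nM (Anxa13, -1.35; Prom1, -0.49) and in 1 of 8 (Anxa13) with each furan, with sums of -0.56 to -0.29, -0.26 to -0.11 and -0.23 to -0.07; Krt19 and Krt7 were near background. Of the 10 hepatocyte markers 7 were saturated on some arrays, 5 of them on all 28, so their ratios can understate a change and no sum is given. Of the 3 never saturated, Cps1 fell with TCDD 1 nM, Tat rose with PeCDF 2 nM (0.57 ± 0.12) and Hnf4a was not called. Of 7 endothelial markers none was called; their sums ran from -0.19 to 0.12 with TCDD 1 nM, -0.13 to 0.11 with TCDF 10 nM and -0.25 to -0.09 with PeCDF 2 nM, the last below the -0.08 to 0.05 of untreated cells on all 4 arrays. Of 6 muscle markers 1 rose with TCDD 1 nM, and their sums ran from 0.05 to 0.13, -0.04 to 0.05 and -0.08 to -0.01, against -0.09 to -0.06. The part of these markers in the members' values was not tested, and fewer cells of a type cannot be told apart from less RNA per cell.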

How the data were processed

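Per the file headers, the authors' scanner files give for each spot a mean signal and a median of the local background as intensity, with Alexa555 in the green and Alexa647 in the red channel. They also deposited a log10 ratio per spot (red to green, after Agilent's own background and dye correction) and a table in which it is turned to test over DMSO RNA. The submitters' processing notes name Agilent Feature Extraction 9.1, while the file headers name another version. For this report the intensities were corrected by normexp (offset 50) and loess, with control spots at weight 0, in limma 3.58.1 (R 4.3.3). Marked spots (0.0921%) were dropped and the orientations of an animal averaged. A probe was used if it stood well above background either in the test RNA of every array of some group or in the DMSO RNA of 14 arrays or more, and the brightest such probe stood for its gene name. Group means were fitted with limma (7 residual and 3.2 prior degrees of freedom), and a gene name was called where the p, adjusted over all gene names by Benjamini and Hochberg's method, was under 0.05. The number of animals limits the precision. Same-lettered samples come from the same animal, which pairs the groups; their deviations from the group means correlated from -0.39 to 0.56 over 21 pairs of groups. The fit was tested on simulated data. Members, lists and rules were chosen with earlier results of these data known. Members named are, per complex, those with the smallest p in each comparison, every member called for a difference, tissue isoforms and non-subunits, and up to 4 genes of each list; not all are given, and some were added after their values were seen. Whether a single DMSO preparation served all arrays of an animal is not given in the sources used here.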

Additional observations from a re-analysis of the deposited data

Results flagged for a closer look

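Ndufv2 differed between doses of TCDD: its log2 ratio over DMSO was lower at 1 nM than at 0.01 nM by -0.30 ± 0.07 (adjusted p = 0.0351, limma, n = 2 animals a group), with -0.37 and -0.55 in animals A and B at 1 nM and -0.16 and -0.14 at 0.01 nM. Both animals were lower at the upper dose.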

How the results depend on the processing

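With 2 animals a group, counts of called members moved with the fit. No share of all gene names was recorded for the alternatives, so their counts of members have none to be read against. Agilent's log ratio and the deposited series values each called 4 members with TCDD 1 nM and 0 with TCDF 10 nM, with PeCDF 2 nM and for the TCDD dose step (main counts 8, 4, 5 and 1). The array-level fit with a dye term, in which both orientations of an RNA enter, called 19, 17 and 16 at these upper doses, 9 for the TCDD step, 6 with PeCDF 0.02 nM, 3 with TCDD 0.01 nM, 1 with TCDF 0.1 nM and 1 for the TCDF step, 8 for TCDD over PeCDF and 5 for TCDD over TCDF. Sessions fitted alone called 1 with TCDF 10 nM, 1 with PeCDF 2 nM and 0 for the TCDD step; TCDD and furans could not be compared there. The TCDD step had 2 without background correction, with marked spots kept, and with a random block for each animal and session. In the order of the main counts, leaving out animals gave 2 to 7, 0 to 1, 0 to 5 and 0 to 1, and the animal as a replicate block (paired fit) gave 9, 4, 6 and 1 and ended no call. The other filters and probe choices kept counts within 1.5 times. No called member changed sign under any alternative run. The members' median stayed below 0 in all 14 settings, from -0.146 to -0.080 with TCDD 1 nM, -0.176 to -0.083 with TCDF 10 nM and -0.130 to -0.054 with PeCDF 2 nM. It did so too in untreated cells (-0.041 to -0.016). The same held for TCDD 0.01 nM (-0.057 to -0.015), TCDF 0.1 nM (-0.062 to -0.038) and PeCDF 0.02 nM (-0.089 to -0.03). The sign alone thus does not set the upper doses apart. The cause of the moved counts was not tested.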

Other observations

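The mitochondrial ribosome, which makes the subunits encoded in mitochondrial DNA, held 61 tested genes, of which 4 rose and 4 fell with TCDD 1 nM, 0 were called with TCDF 10 nM (limma) and 2 fell with PeCDF 2 nM. Their medians were 0.00, 0.02 and -0.04. Of all gene names 10.6%, 2.36% and 4.39% were called in these groups. Mrpl45 had 0.32 ± 0.06 and Mrpl15 -0.50 ± 0.10 with TCDD 1 nM (adjusted p = 0.00676 and 0.00859). Of 15 import genes 0 were called with TCDD 1 nM, and Tomm70, a receptor of the outer membrane, rose with TCDF 10 nM (0.25 ± 0.05) and PeCDF 2 nM (0.22 ± 0.05). In oxidant defence Sod2, the manganese superoxide dismutase of the matrix, rose with all 3 upper doses, at 0.85 and 0.90 in animals A and B with TCDD 1 nM, 0.74 and 0.65 with TCDF 10 nM, and 0.33 and 0.25 with PeCDF 2 nM. Nnt, which makes NADPH in the inner membrane, and Gpx4, which reduces lipid peroxides, had -0.46 ± 0.06 and -0.31 ± 0.07 with TCDD 1 nM (adjusted p = 0.000888 and 0.0145).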
